A study of Mus musculus with 12 samples.

Results

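The genes described here are 10 mouse amino acid transporter genes, taken by name: Slc7a5, Slc3a2, Slc1a5, Slc1a4, Slc7a1, Slc7a6, Slc7a11, Slc38a1, Slc38a2 and Slc43a1. All 10 were among the 47359 gene rows of the deposited table, with a value in each of 12 RNA sequencing libraries. Of the 10, 9 had enough counts to enter the tests, which ran over 21565 genes, and Slc7a11 did not. The RNA came from TH17 cells, helper T cells known for making IL-17, that had been transferred into RAG2-/- mice and recovered from their central nervous system (CNS) when disease was at its peak. RAG2-/- hosts form no T or B cells but keep their other blood and brain cells. Donor cells of both genotypes were labelled 2D2, a T cell receptor transgene specific for the myelin protein MOG. The groups were 1 library of 2D2-IL-17A/F-DKO CXCR6+ cells (DKO CXCR6+, lacking Il17a and Il17f), 5 libraries of 2D2-WT CXCR6+ cells (WT CXCR6+), 1 library of 2D2-IL-17A/F-DKO SLAMF6+ cells (DKO SLAMF6+) and 5 libraries of 2D2-WT SLAMF6+ cells (WT SLAMF6+), each made from 1000 sorted living cells. The labels give neither the age of the animals nor whether libraries of a group came from separate animals, and p-values therefore measure no more than the spread among these samples, which may be technical.

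T cells that divide and make cytokines take up amino acids at a high rate, to build protein and to keep the growth kinase complex mTORC1 active. Slc3a2 encodes the CD98 heavy chain, which brings a light chain to the plasma membrane, and the light chain does the transport: Slc7a5 (LAT1) imports leucine and other large neutral amino acids in exchange for glutamine, Slc7a6 exchanges arginine and lysine for neutral amino acids, and Slc7a11 (xCT) imports cystine. Slc1a5 and Slc1a4 exchange small neutral amino acids, glutamine among the substrates of Slc1a5, Slc38a1 and Slc38a2 import small neutral amino acids with sodium, Slc7a1 imports arginine and lysine, and Slc43a1 carries large neutral amino acids without a heavy chain. The transcription factor MYC raises several of these genes after T cell activation, and ATF4, made when the kinase GCN2 senses uncharged tRNA, raises several of them when amino acids are short.

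Start-site windows of 3 of the transporter genes are printed because the ATF4 target genes differed between the DKO and WT libraries, as described further on. Of the genes with a window that fell in both DKO libraries, Slc1a4 had the ATF4 motif in it, and Slc7a1, Slc3a2 and Slc38a2 did not. Slc7a11 had the motif but was too scarce to test. Whether the motif has a part in these differences was not tested. The windows come from RefSeq on GRCm38.p6, run from 250 bases before to 50 bases after a start, and were listed for 7 of the 10 genes (9 windows, not for Slc7a5, Slc1a5 and Slc38a1). Capitals mark TGATGNAA, the letters of a C/EBP-ATF element that ATF4 binds, read on both strands. The windows lie on the minus strand at chr11:20332664-20332963 for Slc1a4, chr3:50443564-50443863 for Slc7a11 and chr5:148399855-148400154 for Slc7a1.
Slc1a4: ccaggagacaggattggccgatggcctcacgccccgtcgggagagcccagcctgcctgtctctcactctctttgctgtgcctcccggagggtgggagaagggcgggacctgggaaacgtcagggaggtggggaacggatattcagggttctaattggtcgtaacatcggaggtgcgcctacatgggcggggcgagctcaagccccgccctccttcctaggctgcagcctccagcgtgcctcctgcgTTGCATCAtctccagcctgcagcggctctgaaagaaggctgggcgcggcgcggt
Slc7a11: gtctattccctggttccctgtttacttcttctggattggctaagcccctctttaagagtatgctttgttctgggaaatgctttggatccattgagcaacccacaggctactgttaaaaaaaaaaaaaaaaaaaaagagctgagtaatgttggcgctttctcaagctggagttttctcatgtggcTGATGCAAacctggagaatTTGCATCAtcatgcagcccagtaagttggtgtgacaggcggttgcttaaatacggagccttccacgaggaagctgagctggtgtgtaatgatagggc
Slc7a1: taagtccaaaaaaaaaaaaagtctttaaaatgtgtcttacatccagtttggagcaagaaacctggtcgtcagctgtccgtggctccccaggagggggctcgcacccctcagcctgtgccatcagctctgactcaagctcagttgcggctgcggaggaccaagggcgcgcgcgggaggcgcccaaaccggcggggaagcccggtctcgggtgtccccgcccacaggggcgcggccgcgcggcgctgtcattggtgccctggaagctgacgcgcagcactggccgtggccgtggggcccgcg

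The Slc1a4 window held 1 match, beginning 4 bases before the start, and the Slc7a11 window held 2 matches, beginning 66 and 47 bases before it. The windows of Slc3a2, Slc7a1 (2 windows), Slc7a6 (2 windows), Slc38a2 and Slc43a1 held none. Among all 32851 windows of the same length, 3.97% held TGATGNAA. CACGTG, the E-box letters that MYC binds, stood once in these windows, 64 bases before the Slc43a1 start, and in 7.15% of all windows. No window of the 9 held both motifs. A match describes letters only, and a window without a match says nothing of a factor elsewhere.

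Library totals were 8552216 counts in DKO CXCR6+, 6818658 to 8710148 in WT CXCR6+, 8285134 in DKO SLAMF6+ and 8134987 to 11635037 in WT SLAMF6+. The targeted gene Il17a had 0 and 3 counts in the DKO CXCR6+ and DKO SLAMF6+ libraries, and Il17f had 1 count in each, and all 4 fell in edgeR (adjusted p 7.91e-06 to 0.000862). The DKO libraries stood apart from the WT libraries in other ways. Trbv16, the V beta segment that fills the WT libraries, made up 9.96% and 6.51% of Trbv counts in DKO CXCR6+ and DKO SLAMF6+, against 99.6% to 99.8% in the WT libraries. Most Trbv counts of the DKO libraries thus came from other segments, although donor cells of both genotypes were labelled 2D2. Summed Trbv counts were 12812 in DKO CXCR6+ and 11729 in DKO SLAMF6+, against 94653 to 176418 in WT CXCR6+ and 131574 to 225802 in WT SLAMF6+. Xist had 0 counts in both DKO libraries, 1520 to 1846 in WT CXCR6+ and 447 to 559 in WT SLAMF6+. Ddx3y had 314 and 249 counts in DKO and 0 in every WT library. The summed T cell markers (10 genes, none at 0) stood at 6731 and 7700 CPM in DKO CXCR6+ and DKO SLAMF6+, against 22130 to 39080 CPM in WT. By gene, 4 of the 10 were higher and 2 lower in DKO CXCR6+, and 5 were higher and 2 lower in DKO SLAMF6+, so the lower sums do not hold gene by gene. The 12 myeloid markers summed to 1600 CPM in DKO CXCR6+ (Aif1, C1qa, C1qb and C1qc at 0) and 496 CPM in DKO SLAMF6+ (C1qc at 0), against 5.80 to 17.3 CPM in WT. By gene, of 11 tested, 4 were higher and 2 lower in DKO CXCR6+, and 9 were higher and 0 lower in DKO SLAMF6+. The higher sum in DKO CXCR6+ was thus not shared by all myeloid markers. The 7 dendritic cell and MHC class II markers (none at 0) summed to 267 CPM in DKO CXCR6+, against 91.8 to 147 CPM in WT CXCR6+, and to 1553 CPM in DKO SLAMF6+, against 272 to 336 CPM in WT SLAMF6+. Of these 7 markers, 4 were higher and 1 lower in DKO CXCR6+, and 5 were higher and 0 lower in DKO SLAMF6+. Haemoglobin genes took 11.9% of the DKO SLAMF6+ counts. Cxcr6 did not pass between the WT subsets (log2 0.71, edgeR adjusted p 0.251) and Slamf6 was lower in WT CXCR6+ (log2 -1.35, edgeR adjusted p 0.0047). Both sort genes were higher in both DKO libraries than in the WT libraries of the same gate. The log2 differences for Cxcr6 were 3.86 in DKO CXCR6+ and 3.33 in DKO SLAMF6+ (edgeR adjusted p 0.000778 and 0.00232), and those for Slamf6 were 4.52 and 4.94 (edgeR adjusted p 9e-06 and 4.09e-06). Mitochondrial genes took 12.9% to 17.6% of counts in WT CXCR6+ and 2.20% to 5.24% in WT SLAMF6+. Ribosomal protein genes took 9.24% to 10.6% in WT CXCR6+ and 18.5% to 19.7% in WT SLAMF6+. The WT subsets thus differed in RNA make-up as well as in sort gate, and a fit without these genes is given below. Each genotype result rests on these DKO libraries, and the part of receptor, sex and other cells in it cannot be told apart from the genotype. In bulk RNA, fewer cells of a type and less RNA per cell cannot be told apart either.

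Expression levels below are in CPM, that is, counts divided by the library total after TMM adjustment and put on a common scale, and log2 fold changes and adjusted p-values come from the quasi-likelihood test of edgeR, adjusted by Benjamini-Hochberg over all genes tested with a threshold of 0.05, and are given with their standard error (SE). Between the WT subsets the glutamine carrier Slc1a5 and the leucine carrier Slc7a5 were more than doubled in CXCR6+ cells, Slc7a1, Slc38a1 and Slc38a2 were higher by smaller factors, and the heavy chain Slc3a2 did not pass. In all, 5 of 9 transporters were higher in WT CXCR6+, where 15.6% of all genes tested were higher. None was lower, by DESeq2 (0), limma-voom (0) and an unadjusted edgeR p under 0.05 (0) as well, where 17.7% of all genes were lower. In DKO CXCR6+ against WT CXCR6+, 5 transporters fell (15.9% of all genes) and 1 rose (12.8% of all genes). In DKO SLAMF6+ against WT SLAMF6+, 5 fell (17.5% of all genes) and 2 rose (13.5% of all genes). Without mitochondrial, ribosomal protein, haemoglobin and receptor genes in the table, 4 of the 5 still passed between the WT subsets, Slc7a1 being the one lost (adjusted p 0.051). The same 5 genes fell in both subsets of DKO, Slc7a5, Slc3a2, Slc1a4, Slc7a1 and Slc38a2. Median log2 fold changes over the 9 genes were 0.45 for the WT subsets, -0.79 for DKO against WT in CXCR6+ and -0.64 in SLAMF6+, beside 0.13, -0.22 and -0.05 over all genes tested.

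**Figure D1:**
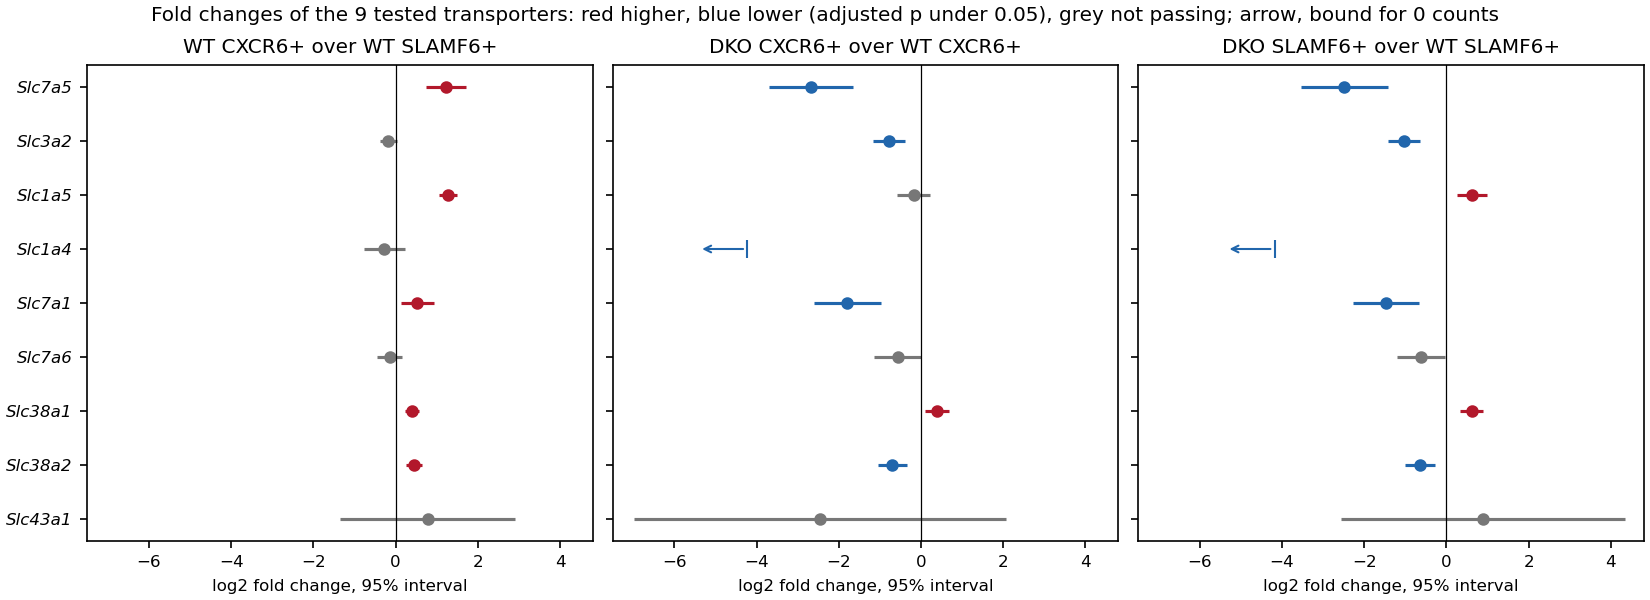
Log2 fold changes of the 9 tested transporters (horizontal axis) with 95% intervals, in WT CXCR6+ over WT SLAMF6+ (left), DKO CXCR6+ over WT CXCR6+ (middle) and DKO SLAMF6+ over WT SLAMF6+ (right). Red genes were higher and blue genes lower with an adjusted p under 0.05, grey genes did not pass, and the arrow of Slc1a4 starts at its bound of at least 18.7-fold and 18.1-fold lower.

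Of all genes called, those higher made up 46.8% in the WT comparison, 44.6% in DKO CXCR6+, 43.5% in DKO SLAMF6+ and 61.8% in the interaction of genotype and subset. These splits depended on the scaling: with offsets for GC content and length they were 62.6% in the WT comparison, 61.1% in DKO SLAMF6+ and 45.3% in the interaction, and with limma-voom they were 62.9% in DKO CXCR6+ and 61.9% in DKO SLAMF6+.

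Slc7a5 (chromosome 8, 121881150 to 121907694 on GRCm38), the LAT1 light chain, was higher in WT CXCR6+ than in WT SLAMF6+ and lowest in the DKO libraries. It stood at 2.08 CPM in the DKO CXCR6+ library (18 counts), against 14.5, 13.2, 10.8, 18.8 and 9.93 CPM in the WT CXCR6+ libraries. In the DKO SLAMF6+ library it stood at 1.01 CPM (7 counts), against 5.55, 4.07, 6.26, 7.20 and 5.64 CPM in the WT SLAMF6+ libraries. No WT CXCR6+ library overlapped with the WT SLAMF6+ libraries, and both DKO libraries lay under every WT library. The mean was 13.4 ± 3.50 CPM in WT CXCR6+, against 5.74 ± 1.14 CPM in WT SLAMF6+ (SD, n = 5 each), a 2.34-fold difference (log2 1.22, SE 0.218, edgeR adjusted p 0.00124). In the DKO libraries Slc7a5 fell 6.46-fold in CXCR6+ (log2 -2.68, SE 0.464, edgeR adjusted p 0.0012) and 5.67-fold in SLAMF6+ (log2 -2.49, SE 0.480, edgeR adjusted p 0.00237). With limma-voom the SLAMF6+ difference did not pass (log2 -2.42, adjusted p 0.097).

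Slc3a2 (chromosome 19, 8706882 to 8723369), the CD98 heavy chain, did not pass between the WT subsets and fell in both DKO libraries. It stood at 92.7 CPM in DKO CXCR6+, against 157, 176, 139, 177 and 150 CPM in WT CXCR6+, and at 88.6 CPM in DKO SLAMF6+, against 193, 149, 202, 185 and 178 CPM in WT SLAMF6+. The WT subsets overlapped, and both DKO libraries lay under all 10 WT libraries. Between the WT subsets the log2 difference was -0.18 (95% interval -0.39 to 0.03, edgeR adjusted p 0.157), and it passed only without WT SLAMF6+ replicate 2 (log2 -0.25, adjusted p 0.0455). The fall in DKO was 1.73-fold in CXCR6+ (log2 -0.79, SE 0.175, edgeR adjusted p 0.00576) and 2.05-fold in SLAMF6+ (log2 -1.03, SE 0.179, edgeR adjusted p 0.00117).

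Slc7a6 (chromosome 8, 106168857 to 106198706), the light chain that exchanges cationic for neutral amino acids, did not pass in any comparison. It ranged from 66.6 to 117 CPM in WT CXCR6+ and from 90.8 to 116 CPM in WT SLAMF6+, which overlapped. The DKO libraries held 63.4 CPM (CXCR6+) and 67.6 CPM (SLAMF6+), both below the WT range of their subset. The log2 differences were -0.15 between the WT subsets (95% interval -0.47 to 0.17, edgeR adjusted p 0.45), -0.57 for DKO in CXCR6+ (-1.14 to 0.01, edgeR adjusted p 0.139) and -0.62 for DKO in SLAMF6+ (-1.20 to -0.04, edgeR adjusted p 0.0981). Without WT CXCR6+ replicate 3, its lowest WT library, both DKO differences passed (log2 -0.67 with adjusted p 0.0308 in CXCR6+, and -0.62 with adjusted p 0.0362 in SLAMF6+). The SLAMF6+ difference also passed in a fit of only the libraries compared (log2 -0.60, adjusted p 0.0154).

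**Figure D2:**
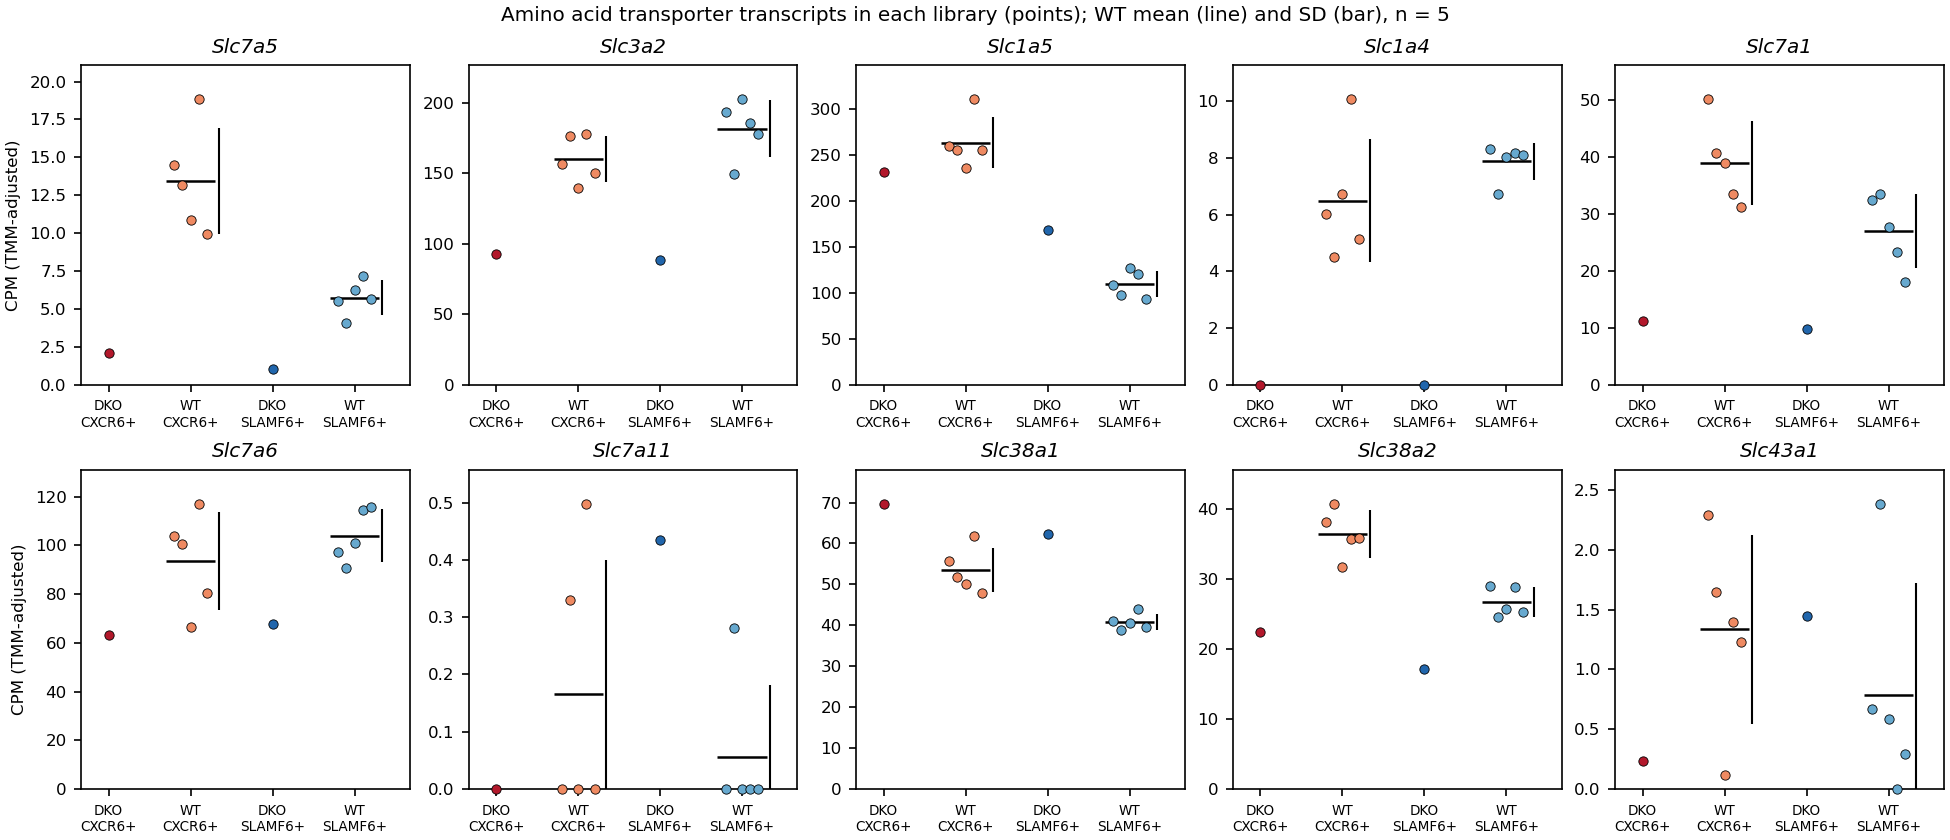
CPM (vertical axis, linear from 0, its own scale in each panel) of the 10 transporter genes in every library (points), with the mean (line) and SD (bar) over the 5 libraries of each WT subset. Slc7a5 and Slc1a4 are lowest in both DKO libraries, Slc1a5 in WT SLAMF6+ lies below the other 3 groups, and Slc7a11 reaches at most 0.498 CPM in any library.

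Slc1a5 (chromosome 7, 16781340 to 16798274), the glutamine carrier ASCT2, had the highest level per length of the 10 genes in both DKO libraries and in WT CXCR6+. It stood at 232 CPM in DKO CXCR6+, against 260, 256, 236, 310 and 255 CPM in WT CXCR6+, and at 168 CPM in DKO SLAMF6+, against 109, 97.8, 127, 120 and 93.0 CPM in WT SLAMF6+. The WT subsets did not overlap, and the DKO SLAMF6+ library lay above all 5 WT SLAMF6+ libraries. Slc1a5 averaged 264 ± 27.8 CPM in WT CXCR6+, against 109 ± 14.3 CPM in WT SLAMF6+ (SD, n = 5 each), a 2.41-fold difference (log2 1.27, SE 0.102, edgeR adjusted p 4.98e-06). In DKO SLAMF6+ it was 1.54-fold higher than in WT SLAMF6+ (log2 0.62, SE 0.167, edgeR adjusted p 0.0153). In DKO CXCR6+ the log2 difference from WT CXCR6+ was -0.18 (95% interval -0.57 to 0.21, edgeR adjusted p 0.485).

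Slc1a4 (chromosome 11, 20302180 to 20332713), the ASCT1 exchanger of alanine, serine and cysteine, had 0 counts in both DKO libraries. The WT CXCR6+ libraries held 50, 41, 59, 101 and 46 counts (6.03, 4.50, 6.74, 10.1 and 5.13 CPM). The WT SLAMF6+ libraries held 87, 48, 82, 84 and 82 counts (8.33, 6.74, 8.02, 8.17 and 8.11 CPM). Every WT library thus held at least 41 counts where the DKO libraries held none. Set against a floor of 3 counts in the DKO library, Slc1a4 was at least 18.7-fold lower in DKO CXCR6+ (edgeR adjusted p 2.6e-05) and at least 18.1-fold lower in DKO SLAMF6+ (edgeR adjusted p 2.73e-05). Of 2133 genes with a WT mean of 5 to 10 CPM, the band that holds Slc1a4, 146 (6.84%) were at 0 in both DKO libraries. The WT subsets overlapped in Slc1a4 (log2 -0.28, 95% interval -0.78 to 0.22, edgeR adjusted p 0.369).

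Slc7a1 (chromosome 5, 148327410 to 148399904), the arginine and lysine carrier CAT1, fell in both DKO libraries. It stood at 11.2 CPM in DKO CXCR6+, against 50.1, 40.7, 38.8, 33.5 and 31.2 CPM in WT CXCR6+, and at 9.70 CPM in DKO SLAMF6+, against 32.5, 33.4, 27.7, 23.2 and 18.0 CPM in WT SLAMF6+. Both DKO libraries lay under all WT libraries, while the WT subsets overlapped. The fall was 3.47-fold in DKO CXCR6+ (log2 -1.79, SE 0.368, edgeR adjusted p 0.00357) and 2.78-fold in DKO SLAMF6+ (log2 -1.47, SE 0.365, edgeR adjusted p 0.0102). Between the WT subsets Slc7a1 averaged 38.9 ± 7.35 CPM in CXCR6+ and 27.0 ± 6.45 CPM in SLAMF6+ (SD, n = 5 each; log2 0.53, SE 0.183, edgeR adjusted p 0.0468). That call was lost without WT CXCR6+ replicate 1, 2 or 3 or WT SLAMF6+ replicate 3, 4 or 5 (adjusted p 0.0741 to 0.105), and with no filter on low counts (0.0791).

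The neighbouring genes Slc38a1 (chromosome 15, 96571418 to 96642913) and Slc38a2 (chromosome 15, 96687392 to 96699730), the sodium-coupled carriers SNAT1 and SNAT2, were both higher in WT CXCR6+ and differed in opposite directions between the DKO and WT libraries. Slc38a1 stood at 69.7 CPM in DKO CXCR6+, against 48.0 to 61.7 CPM in WT CXCR6+ (median 51.9), and at 62.4 CPM in DKO SLAMF6+, against 38.8 to 44.0 CPM in WT SLAMF6+ (median 40.6). Each DKO library was above its WT range. Slc38a1 was 1.31-fold higher in WT CXCR6+ than in WT SLAMF6+ (log2 0.39, SE 0.077, edgeR adjusted p 0.00256), 1.53-fold higher in DKO SLAMF6+ than in WT SLAMF6+ (log2 0.61, SE 0.129, edgeR adjusted p 0.004) and 1.3-fold higher in DKO CXCR6+ than in WT CXCR6+ (log2 0.38, SE 0.130, edgeR adjusted p 0.0483). The last of these passed in 7 of 18 alternatives (adjusted p 0.000576 to 0.162), and was lost without any 1 of WT CXCR6+ replicates 1, 2, 3 and 5 or of the 5 WT SLAMF6+ replicates, with no filter on low counts and in a fit of only the libraries compared.

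Slc38a2, known as a gene that cells raise when amino acids are short, stood at 22.4 CPM in DKO CXCR6+, against 31.6 to 40.7 CPM in WT CXCR6+ (median 35.8). In DKO SLAMF6+ it stood at 17.1 CPM, against 24.6 to 29.0 CPM in WT SLAMF6+ (median 25.6). The WT subsets did not overlap, and each DKO library was below its WT range. Slc38a2 was 1.36-fold higher in WT CXCR6+ than in WT SLAMF6+ (log2 0.45, SE 0.088, edgeR adjusted p 0.0023), and 1.62-fold and 1.56-fold lower in DKO in CXCR6+ (log2 -0.70, SE 0.160, edgeR adjusted p 0.00698) and in SLAMF6+ (log2 -0.64, SE 0.162, edgeR adjusted p 0.0113). With offsets for GC content and length none of the 3 passed (log2 0.17, -0.34 and -0.37, adjusted p 0.17, 0.145 and 0.106).

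Slc43a1 and Slc7a11 were scarce. Slc43a1 (chromosome 2, 84838850 to 84863594), the LAT3 carrier, stood at 0.231 CPM in DKO CXCR6+ (2 counts), against 0.114 to 2.29 CPM in WT CXCR6+, and at 1.45 CPM in DKO SLAMF6+ (10 counts), against 0 to 2.39 CPM in WT SLAMF6+. These ranges overlapped, and no comparison passed (edgeR adjusted p 0.433 to 0.705), with intervals wide enough (-6.99 to 2.07 for the log2 difference in DKO CXCR6+) that a change was not detectable at this depth. Slc7a11 (chromosome 3, 49892526 to 50443614), the cystine carrier, had 0 counts in DKO CXCR6+, 3 counts in DKO SLAMF6+, and 0 counts in 7 of 10 WT libraries, with 3, 5 and 2 counts in the others.

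Whether the genotype difference itself differed between the subsets was tested as an interaction. None of the 9 transporters passed in edgeR, where 10.3% of all genes tested passed in either direction; 1 of 9 had an unadjusted p under 0.05, DESeq2 called 1 and limma-voom 0. That gene was Slc1a5, whose genotype difference was lower in CXCR6+ than in SLAMF6+ by 0.81 on the log2 scale (log2 -0.81, SE 0.247, edgeR p 0.00785, adjusted p 0.0666). The call appeared under DESeq2's Wald test (log2 -0.87, adjusted p 0.00368) and in 4 other settings, among them without WT SLAMF6+ replicate 3 (log2 -0.87, adjusted p 0.0497), with an adjusted p of 0.00368 to 0.169 over all alternatives. Within the DKO pair, with 1 library each and so no test, the log2 ratio of CXCR6+ over SLAMF6+ for Slc1a5 was 0.46 (95% counting interval 0.36 to 0.57), beside 1.27 in WT. For Slc7a5 the DKO log2 ratio was 0.90 (-0.29 to 2.54), beside 1.22 in WT, and for Slc38a2 it was 0.39 (0.06 to 0.74), beside 0.45 in WT. For Slc3a2 it was 0.07 (-0.09 to 0.22), beside -0.18 in WT. These intervals cover counting error only.

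Levels per length, as CPM per kb of annotated exon sequence, put Slc1a5, Slc3a2 and Slc7a6 above the other 7 transporters in every group. In DKO CXCR6+ these 3 stood at 55.6, 26.3 and 13.9 CPM per kb in that order, and in WT CXCR6+ at 63.2 ± 6.67, 45.3 ± 4.70 and 20.5 ± 4.40 CPM per kb (SD, n = 5). In DKO SLAMF6+ they stood at 40.4, 25.1 and 14.8 CPM per kb, and in WT SLAMF6+ Slc3a2 led with 51.4 ± 5.72 CPM per kb, followed by Slc1a5 at 26.2 ± 3.42 and Slc7a6 at 22.7 ± 2.38, which overlapped. Below them in WT CXCR6+ came Slc38a2, Slc7a5, Slc7a1 and Slc38a1 at 4.12, 3.63, 3.37 and 3.10 CPM per kb, each overlapping its neighbour in this order. Slc1a4 (1.65), Slc43a1 (0.234) and Slc7a11 (0.0119) followed. In WT SLAMF6+ the middle order was Slc38a2 (3.02), Slc38a1 (2.37), Slc7a1 (2.34), Slc1a4 (2.01) and Slc7a5 (1.55), of which Slc38a2 alone stood clear of its lower neighbour. The DKO libraries had Slc38a1 first among these, at 4.04 CPM per kb in CXCR6+ and 3.62 in SLAMF6+, then Slc38a2 (2.54 and 1.93), Slc7a1 (0.973 and 0.842) and Slc7a5 (0.561 and 0.273). By exon length Slc7a5 thus ranked 5 in WT CXCR6+ and 8 in WT SLAMF6+, and by mean transcript length it ranked 6 and 7. The first 3 were the same with the mean transcript length in place of the exon length, and the middle order was not (Slc7a1, Slc38a1, Slc7a5, Slc38a2 in WT CXCR6+).

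**Figure D3:**
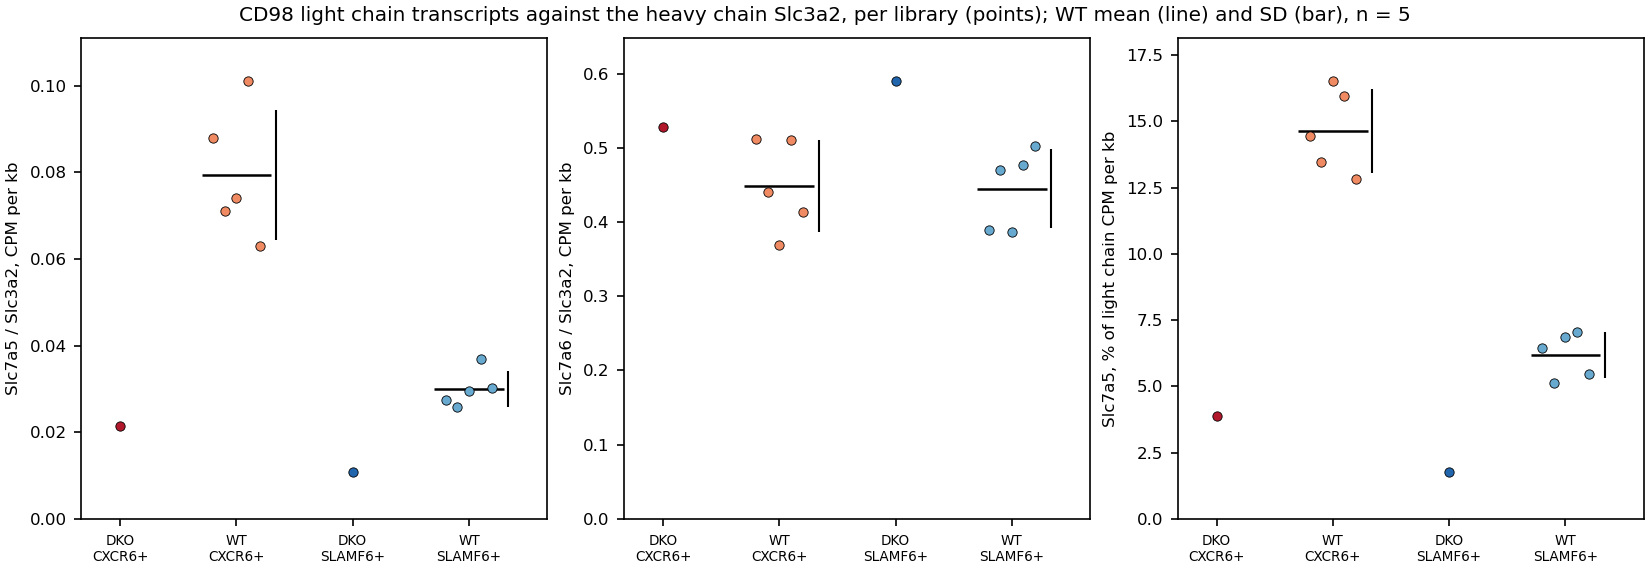
Ratio per kb of Slc7a5 to Slc3a2 (left), of Slc7a6 to Slc3a2 (middle) and Slc7a5 as a percentage of the CPM per kb of 6 light chain genes (right), in every library (points), with the mean (line) and SD (bar) over the 5 libraries of each WT subset. The Slc7a5 measures separate WT CXCR6+ from WT SLAMF6+ and both from the DKO libraries, whereas Slc7a6 per Slc3a2 overlaps between the WT subsets.

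Because light chains reach the surface with the heavy chain, each library was also described by the make-up of its CD98 transcripts. Slc7a5 per Slc3a2, as a ratio of CPM per kb, was 0.0214 in DKO CXCR6+ against 0.0794 ± 0.0150 in WT CXCR6+, and 0.0109 in DKO SLAMF6+ against 0.0300 ± 0.00424 in WT SLAMF6+ (SD, n = 5 each). The WT ranges, 0.0630 to 0.101 in CXCR6+ and 0.0260 to 0.0370 in SLAMF6+, did not overlap, and each DKO library was below both. Slc7a6 per Slc3a2 was 0.528 in DKO CXCR6+ against 0.449 ± 0.0621 in WT CXCR6+, and 0.589 in DKO SLAMF6+ against 0.445 ± 0.0535 in WT SLAMF6+, with each DKO library above its WT range. Of the summed CPM per kb of the light chain genes Slc7a5, Slc7a6, Slc7a7, Slc7a8, Slc7a10 and Slc7a11, Slc7a5 made up 3.89% in DKO CXCR6+ against 14.6 ± 1.57% in WT CXCR6+, and 1.77% in DKO SLAMF6+ against 6.19 ± 0.858% in WT SLAMF6+. Slc7a6 held most of the rest, with 96.1% in DKO CXCR6+ against 82.9 ± 1.57% in WT CXCR6+, and 95.6% in DKO SLAMF6+ against 91.2 ± 1.06% in WT SLAMF6+. Slc7a7, Slc7a8 and Slc7a10 stayed at or below 3.07 CPM in every library. These ratios follow from the gene values above, carry no test of their own, and describe transcripts, not protein complexes.

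The genes with the profile most like that of Slc7a5 over the 12 libraries, by the root mean square difference of centred log2 CPM among 5093 genes of at least 20 CPM, were Itgav (0.322), Cep43 (0.325) and Mfhas1 (0.337). Unnamed gene models, Rik clones and pseudogenes had been left out. Slc7a1 was the nearest transporter to Slc7a5 (0.6, rank 95), and the heavy chain Slc3a2 was farther away (0.871, rank 595). For Slc3a2 the nearest were Naa20 (0.104), Pgd (0.106) and Fermt3 (0.107), and Slc7a6 was the nearest transporter (0.2, rank 164). All profiles come from the same 12 libraries, 2 of them DKO, so these distances are a description with no test.

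Among 30 other plasma membrane amino acid transporters, 12 were tested. None passed between the WT subsets in edgeR (unadjusted p under 0.05: 0), DESeq2 (0) or limma-voom (0), and 1 was higher in each of 4 other fits: with the offsets, with the offsets and the replicate block (12 tested), with the libraries compared alone (10 tested), and with a minimum of 10 CPM in 5 libraries (3 tested). In DKO CXCR6+ 7 fell and 0 rose, and in DKO SLAMF6+ 6 fell and 0 rose, with median log2 differences of -3.45 and -1.68. By limma-voom 3 fell and 1 rose in CXCR6+, and 2 fell in SLAMF6+. Of all genes tested in edgeR, 15.9% fell and 12.8% rose in DKO CXCR6+, and 17.5% fell and 13.5% rose in DKO SLAMF6+. Slc7a3, a cationic amino acid transporter related to Slc7a1, stood at 0.925 CPM in DKO CXCR6+ against 11.8 ± 3.18 CPM in WT CXCR6+ (edgeR adjusted p 0.000338), and at 0.145 CPM in DKO SLAMF6+ against 11.1 ± 2.27 CPM in WT SLAMF6+ (edgeR adjusted p 5.41e-05). Its relative Slc7a4 had 0 counts in both DKO libraries, against 447 counts summed over the WT CXCR6+ libraries and 521 over the WT SLAMF6+ libraries (edgeR adjusted p 1.35e-05 and 1.73e-05). Of 20 tested lysosomal and mitochondrial carriers, 3 were higher and 3 lower in WT CXCR6+, 1 rose and 7 fell in DKO CXCR6+, and 3 rose and 5 fell in DKO SLAMF6+. The WT counts lie near the shares of all tested genes, 15.6% higher and 17.7% lower. With the offsets 3 rose and 4 fell of 19 tested in DKO CXCR6+, so that balance depended on the scaling. Slc38a9, the lysosomal arginine sensor of mTORC1, averaged 21.3 ± 1.91 CPM in WT CXCR6+, against 12.2 ± 2.56 CPM in WT SLAMF6+ (log2 0.80, edgeR adjusted p 0.00151). The mitochondrial carriers Slc25a12 and Slc25a39 were lower in WT CXCR6+ (log2 -0.69 and -1.19, edgeR adjusted p 2.26e-05 and 5e-05). Slc15a3, a lysosomal carrier of histidine and small peptides, stood at 11.7 CPM in DKO CXCR6+ against 148 ± 30.7 CPM in WT CXCR6+ (log2 -3.66, edgeR adjusted p 1.05e-05).

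**Figure D4:**
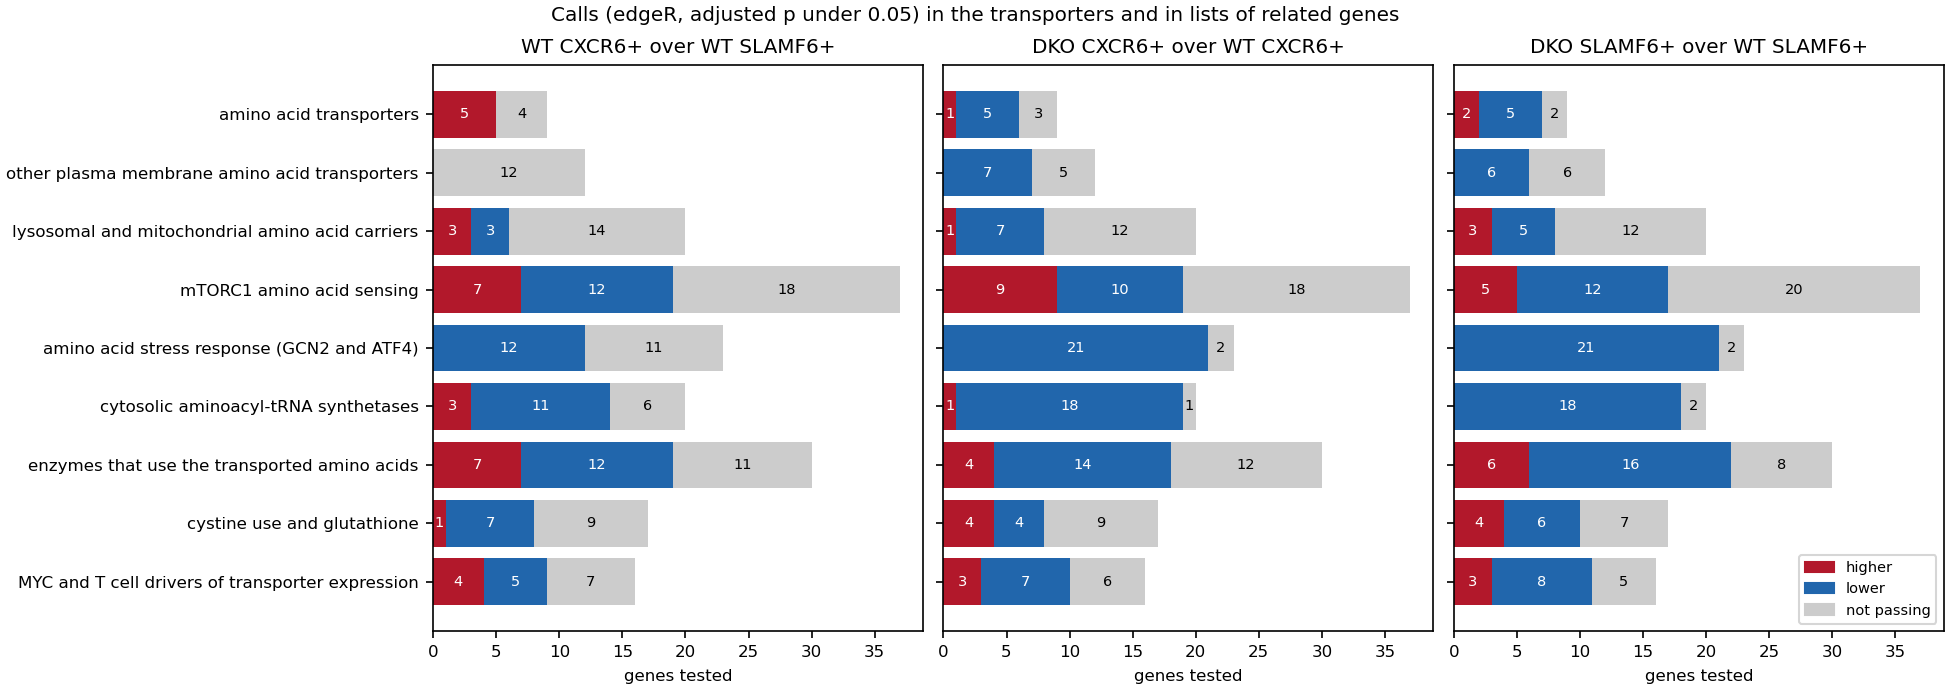
Number of genes tested (horizontal axis) that were higher (red), lower (blue) or did not pass (grey) at an edgeR adjusted p under 0.05, for the transporters and 8 lists of related genes, in the 3 comparisons. The list of the amino acid stress response has 21 of 23 genes lower in each DKO comparison and the tRNA synthetases 18 of 20, while the transporters divide 5 lower to 1 and to 2 higher. Of all genes tested, 15.9% were lower and 12.8% higher in DKO CXCR6+, and 17.5% lower and 13.5% higher in DKO SLAMF6+.

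Most genes known to respond to amino acid shortage fell in the DKO libraries. Of 23 tested genes of the GCN2 and ATF4 response, 21 fell in DKO CXCR6+ and 21 in DKO SLAMF6+, with none higher and median log2 differences of -2.84 and -2.02. The 2 that did not pass were Eif2s1 and Ddit4 in CXCR6+ and Eif2ak4 and Atf5 in SLAMF6+. By limma-voom 20 of 23 fell in DKO CXCR6+ and 19 in DKO SLAMF6+. With offsets for GC content and length, 20 of 22 fell and 1 rose in CXCR6+, and 17 of 22 fell in SLAMF6+. Of all genes tested in edgeR, 15.9% fell and 12.8% rose in DKO CXCR6+, and 17.5% fell and 13.5% rose in DKO SLAMF6+. Psat1, an enzyme of serine synthesis, stood at 20.1 CPM in DKO CXCR6+ against 144 ± 11.2 CPM in WT CXCR6+ (log2 -2.84, edgeR adjusted p 7.18e-07), and at 22.7 CPM in DKO SLAMF6+ against 197 ± 17.2 CPM in WT SLAMF6+ (log2 -3.12, edgeR adjusted p 4.71e-07). Pycr1, an enzyme of proline synthesis, had 0 counts in DKO SLAMF6+ against 1277 summed over WT SLAMF6+ (26.3 ± 3.47 CPM, edgeR adjusted p 9.72e-07). Between the WT subsets 12 of the 23 were lower in CXCR6+ and 0 higher (median log2 -0.38), and with offsets for GC content and length 7 of 22 were lower. Of all genes tested in edgeR, 17.7% were lower and 15.6% higher there. Asns, the asparagine synthetase, averaged 57.5 ± 8.42 CPM in WT CXCR6+, against 92.6 ± 9.53 CPM in WT SLAMF6+ (log2 -0.69, edgeR adjusted p 0.000545). Asns fell in both DKO libraries (log2 -2.87 in CXCR6+ and -4.41 in SLAMF6+, edgeR adjusted p 7.21e-06 and 1.04e-06). Of the transporters that fell in both DKO libraries, Slc7a5, Slc38a2 and Slc7a1 were higher in WT CXCR6+, where Asns was lower. The WT calls of Slc38a2 and Slc7a1 were lost in some alternatives. Slc3a2 and Slc1a4 did not pass between the WT subsets (log2 -0.18 and -0.28). Whether ATF4 had a part in any of these differences was not tested.

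Of the 20 cytosolic aminoacyl-tRNA synthetases, which load amino acids on tRNA, 18 fell in DKO CXCR6+ and 18 in DKO SLAMF6+, with 1 and 0 higher (median log2 -0.72 and -1.17). With offsets for GC content and length, 13 of 18 fell in CXCR6+ and 11 of 18 in SLAMF6+. Of all genes tested, 15.9% fell in DKO CXCR6+ and 17.5% in DKO SLAMF6+, and 17.7% were lower and 15.6% higher in WT CXCR6+. Gars, the glycine enzyme, stood at 55.1 CPM in DKO CXCR6+ against 140 ± 10.8 CPM in WT CXCR6+ (log2 -1.35, edgeR adjusted p 9.92e-06), and at 42.9 CPM in DKO SLAMF6+ against 209 ± 7.98 CPM in WT SLAMF6+ (log2 -2.29, edgeR adjusted p 5.5e-07). Between the WT subsets 11 were lower in CXCR6+ and 3 higher, against 5 lower and 6 higher with the offsets, so that the balance of this list was not stable to scaling. Dars, the aspartate enzyme, averaged 69.8 ± 8.22 CPM in WT CXCR6+, against 147 ± 7.87 CPM in WT SLAMF6+ (log2 -1.08, edgeR adjusted p 3.8e-06).

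Of 37 genes of mTORC1 amino acid sensing, 7 were higher and 12 lower in WT CXCR6+, 9 rose and 10 fell in DKO CXCR6+, and 5 rose and 12 fell in DKO SLAMF6+. Of all genes tested, 15.6% were higher and 17.7% lower in WT CXCR6+. In DKO CXCR6+ 12.8% of all genes rose and 15.9% fell, and in DKO SLAMF6+ 13.5% rose and 17.5% fell. The 5 sensing genes that rose in DKO SLAMF6+ lie near the share of 13.5%. Eif4ebp1, a translation repressor that mTORC1 inactivates, stood at 24.0 CPM in DKO CXCR6+ against 151 ± 19.0 CPM in WT CXCR6+ (log2 -2.65, edgeR adjusted p 2.48e-06), and at 17.1 CPM in DKO SLAMF6+ against 315 ± 20.4 CPM in WT SLAMF6+ (log2 -4.20, edgeR adjusted p 2.95e-07). Sesn2, a leucine sensor that restrains mTORC1, stood at 0.434 CPM in DKO SLAMF6+ against 32.3 ± 3.34 CPM in WT SLAMF6+ (log2 -6.17, edgeR adjusted p 2.7e-06). Lamtor1, a lysosomal anchor of the pathway, averaged 42.7 ± 3.93 CPM in WT CXCR6+, against 89.5 ± 7.10 CPM in WT SLAMF6+ (log2 -1.07, edgeR adjusted p 3.23e-06). Lamtor4, a subunit of the same Ragulator complex, stood at 71.3 CPM in DKO CXCR6+ against 18.7 ± 1.62 CPM in WT CXCR6+ (log2 1.93, edgeR adjusted p 4.66e-06). The other subunits, Lamtor1, Lamtor2, Lamtor3 and Lamtor5, rose there too, by 0.87, 1.34, 1.05 and 1.13 on the log2 scale (edgeR adjusted p 0.000125 to 0.00045), and are named after their values were seen. In DKO SLAMF6+ the subunits did not rise together, with log2 differences of -0.15 for Lamtor1, 0.25 for Lamtor2, 0.70 for Lamtor3, 1.05 for Lamtor4 and -0.61 for Lamtor5. With the offsets the DKO SLAMF6+ comparison held 11 sensing genes higher and 8 lower, so this list too had no stable balance.

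Enzymes that use the imported amino acids held members in both directions, and more fell than rose in DKO. Of 30, 7 were higher and 12 lower in WT CXCR6+, 4 rose and 14 fell in DKO CXCR6+, and 6 rose and 16 fell in DKO SLAMF6+. Their median log2 differences were -0.235, -0.824 and -0.945 in that order. Of all genes tested, 15.6% were higher and 17.7% lower in WT CXCR6+. In DKO CXCR6+ 12.8% of all genes rose and 15.9% fell, and in DKO SLAMF6+ 13.5% rose and 17.5% fell. Ass1, which makes argininosuccinate on the way to arginine, averaged 52.3 ± 5.13 CPM in WT CXCR6+, against 126 ± 15.3 CPM in WT SLAMF6+ (log2 -1.27, edgeR adjusted p 3.23e-06). Odc1, which makes polyamines from arginine-derived ornithine, stood at 17.2 CPM in DKO CXCR6+ against 171 ± 12.2 CPM in WT CXCR6+ (log2 -3.31, edgeR adjusted p 1.84e-07), and at 13.6 CPM in DKO SLAMF6+ against 104 ± 7.03 CPM in WT SLAMF6+ (log2 -2.94, edgeR adjusted p 3.72e-07). Bcat1, the cytosolic enzyme that deaminates leucine, stood at 1.27 CPM in DKO CXCR6+ against 34.5 ± 4.03 CPM in WT CXCR6+ (log2 -4.75, edgeR adjusted p 2.29e-06).

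Of 17 genes of cystine use and glutathione, 1 was higher and 7 lower in WT CXCR6+, 4 rose and 4 fell in DKO CXCR6+, and 4 rose and 6 fell in DKO SLAMF6+. With the offsets 4 were higher and 5 lower in WT CXCR6+, so the balance between the WT subsets depended on the scaling. Of all genes tested in edgeR, 15.6% were higher and 17.7% lower in WT CXCR6+. In DKO CXCR6+ 12.8% of all genes rose and 15.9% fell, and in DKO SLAMF6+ 13.5% rose and 17.5% fell. Gpx4, the glutathione peroxidase of membrane lipids, averaged 236 ± 43.4 CPM in WT CXCR6+, against 591 ± 31.4 CPM in WT SLAMF6+ (log2 -1.32, edgeR adjusted p 8.97e-06). Ggt1, which splits extracellular glutathione, stood at 189 CPM in DKO CXCR6+ against 0.799 ± 0.485 CPM in WT CXCR6+ (log2 7.86, edgeR adjusted p 1.89e-05). Of 16 regulators of transporter genes, among them MYC partners and cytokine receptors, 4 were higher and 5 lower in WT CXCR6+, 3 rose and 7 fell in DKO CXCR6+, and 3 rose and 8 fell in DKO SLAMF6+. The shares of all genes tested are those given above, among them 15.9% that fell in DKO CXCR6+ and 17.5% that fell in DKO SLAMF6+. Il2ra, the alpha chain of the IL-2 receptor, stood at 23.0 CPM in DKO CXCR6+ against 952 ± 71.0 CPM in WT CXCR6+ (log2 -5.37, edgeR adjusted p 1.11e-08), and at 14.6 CPM in DKO SLAMF6+ against 807 ± 25.5 CPM in WT SLAMF6+ (log2 -5.78, edgeR adjusted p 1.8e-08). All these DKO differences stand beside the shifts in marker sums, receptor and sex-linked genes given above, whose part in them was not tested.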

How the data were processed

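RNA of 12 libraries of 1000 sorted cells was made into full-length cDNA by a modified SMART-Seq2 protocol and Nextera XT libraries, per the labels' protocols, which do not mark the strand. Expected counts for each gene symbol were deposited by the authors as whole numbers, and the submitters' processing notes name STAR 2.7.7a, RSEM 1.3.3 and the mm10 build. The annotation is not given in the sources used here. Of 47359 symbols, 41372 (87.4%) matched a single GENCODE M21 gene (GRCm38), the source of coordinates, lengths and GC content, and no annotated exon of another gene overlapped those of the transporters. No 2 libraries were identical.

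The expected counts, taken as rounded estimates, were tested with edgeR 4.0.16 in R 4.3.3: TMM, filterByExpr, 1 quasi-likelihood fit of the 4 groups (common dispersion 0.396, 8 residual degrees of freedom), Benjamini-Hochberg adjustment and a threshold of 0.05. DKO groups have 1 library each, assumed to vary like the WT libraries. SE is the log2 fold change over the root of F. For the DKO pair, log2 ratios were taken (prior count 2), without a test. The steps were tested on simulated counts. Alternatives used DESeq2 1.42.0, limma-voom (limma 3.58.1), other filters, fits of fewer libraries, a replicate block, GC content and length offsets (spline with df 5, both values known for 90.5% of tested genes), and each WT library left out.

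The transporters and all gene lists were chosen with earlier results of these data known. All transporters are named; from each list the rule allows the 3 smallest p among genes passing between the WT subsets and the 2 smallest in each DKO comparison, and the profile rule gives the 3 nearest genes. Trbv16, Xist, Ddx3y and the genes not passing in the stress list were named after their values were seen. One gene that the rule selects and some marker genes are not reported here.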

Additional observations from a re-analysis of the deposited data

Results flagged for a closer look

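Slc1a4 in WT SLAMF6+ replicate 2 stood at 6.74 CPM, lower than the other 4 libraries of its group by a gap that is large for its range; those lay between 8.02 and 8.33 CPM. Slc43a1 in the same library stood at 2.39 CPM, above the other 4, which lay between 0 and 0.670 CPM. Of 19 groups of 5 values looked at in this way, chance singles out about 1 in 20. Neither value moves a call: Slc1a4 and Slc43a1 did not pass between the WT subsets with this library or without it.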

How the results depend on the processing

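Between the WT subsets, and for DKO against WT in each subset, the number of transporters passing stayed within 1.5 times of the reported 5, 6 and 7 under every alternative run. Leaving out each WT library in turn gave 4 to 6 transporters between the WT subsets (6324 to 6949 of all genes), 5 to 6 for DKO against WT in CXCR6+ (5853 to 6203), 7 to 8 in SLAMF6+ (6065 to 6885) and 0 to 1 in the interaction (1856 to 2347). The interaction count of 0 became 1, Slc1a5, with DESeq2 size factors (1; adjusted p 0.0449), DESeq2's Wald test (1; 0.00368), at least 10 CPM in 5 libraries (1; 0.00521), offsets for GC content and length (1; 0.0224) and without WT SLAMF6+ replicate 3 (1; 0.0497); the cause was not tested. Slc1a4 and Slc43a1 had too few counts for the filter of 10 CPM. No called value changed sign. Slc38a2 in DKO SLAMF6+ missed the threshold with the 10 CPM filter (log2 -0.35, adjusted p 0.0906). Signs of values that did not pass were not stable: Slc3a2 between the WT subsets ran from -0.25 to 0.11. Without the DKO libraries in the fit, the WT log2 differences of Slc7a5, Slc1a5 and Slc7a1 were 1.35, 1.40 and 0.66, and the same 5 transporters passed.

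Replicate numbers did not pair the libraries: same-numbered WT libraries correlated at -0.0461 to 0.101 over 5461 genes, and only number 5 correlated best with itself. With the replicate number as a block, 5 transporters and 6944 genes passed between the WT subsets, and with the block and the offsets 4 and 6010. In the interaction 0 transporters and 1554 genes passed with the block, beside 2221. The DKO comparisons could not be fitted with the block, since both DKO libraries carry the same number, which no WT library has. Depth limits Slc7a11, Slc43a1 and, with 7 and 18 counts in DKO, the size of the Slc7a5 change. Values per length moved with the length used.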
